A study of Homo sapiens with 2 samples.

Results

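MALAT1, NEAT1, NORAD, TUG1, KCNQ1OT1 and OIP5-AS1 are long non-coding RNAs that are abundant in many human cell types. These 6 genes were taken by name out of the 28117 named genes in the deposited tables. All 6 were measured, here meaning an average of 10 or more CPM (counts scaled to a common library size) over both libraries. That was so for 8711 genes in all, of which 262 had only non-coding RefSeq transcripts. The tables come from HEK293T, a human embryonic kidney cell line that carries the SV40 large T antigen. Cells of the tRF-3004b group were transfected with a mimetic of tRF-3004b, a small RNA of transfer RNA origin, and cells of the control group with a non-targeting RNA, so both groups carry a transfected small RNA and no untreated cells were compared. The concentration of either RNA was 500 nM, collection followed at 120 h, and poly-A RNA was sequenced with a directional kit. There was 1 library per group. The comparison is therefore between these 2 libraries, without a p-value and without replicates to check it, and every 95% interval covers counting error only.

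The transfected RNAs are printed 5′ to 3′, with bases 2 to 8 in capitals because these bases, the seed, are those searched for in the non-coding RNAs.
tRF-3004b: uCAAAUCUcgguggaaccucca
Non-targeting control: cGUACGCGgaauacuucgauu

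Long non-coding RNAs are transcribed and often spliced like messenger RNAs but act as RNA, as scaffolds, as decoys for proteins or microRNAs, or at the locus where they are made. MALAT1, NEAT1 and KCNQ1OT1 are known as nuclear RNAs, NORAD and OIP5-AS1 as largely cytoplasmic ones, and TUG1 is found in both compartments. The mature 3′ ends of MALAT1 and of the long NEAT1 isoform are made by RNase P and protected by a triple helix in place of a poly-A tail, so that poly-A selection captures these RNAs by routes other than a tail, such as A-rich stretches in the RNA itself.

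The tRF-3004b library held 1809193 estimated counts and the control library 19609933, a 10.8-fold difference in depth, so the error of each ratio is set mainly by the tRF-3004b counts. Genes with long transcripts were lower in the tRF-3004b library. In 10 equal bins of transcript length, the median log2 ratio of tRF-3004b over control ran from 0.65 in the shortest bin to -0.46 in the longest, with a median of -0.12 over all 8711 genes. The 6 HEK293 markers summed to 1034 CPM in the tRF-3004b library and 1539 CPM in the control library, most of it VIM. VIM was lower, with 980 CPM in the tRF-3004b library and 1447 CPM in the control library, as was EYA1, with 29.8 CPM in the tRF-3004b library and 73.5 CPM in the control library. INA was higher, with 9.57 CPM in the tRF-3004b library and 4.06 CPM in the control library, and the log2 ratio of NEFM was 0.33 (interval -0.34 to 0.94). Of the kidney lineage markers, LHX1 had 0 counts in the tRF-3004b library and 61 in the control library, or 3.06 CPM there. PAX2 was low in both, with 2 counts in the tRF-3004b library and 19 in the control library. That is 1.13 CPM against 0.95 CPM, a log2 ratio of 0.22 (interval -2.9 to 2.3). Summed, markers of other cell types were higher in the tRF-3004b library. Most rest on few counts, as 2 fibroblast markers and 0 blood or epithelial markers reached the minimum of 10 CPM. All 5 of 5 fibroblast markers had a log2 ratio above 0 and summed to 91.8 CPM in the tRF-3004b library, against 9.43 CPM in the control library. The 5 blood markers likewise summed to 29.8 CPM in the tRF-3004b library and 3.26 CPM in the control library. The 5 epithelial markers summed to 34.9 CPM in the tRF-3004b library and 10.5 CPM in the control library, with KRT5 at 0 counts in both and no fibroblast or blood marker at 0. Their part in the results below was not tested. In bulk RNA of this kind, fewer cells of a type and less RNA per cell cannot be told apart.

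The 6 long non-coding RNAs did not move together. KCNQ1OT1 was 1.77-fold higher in the tRF-3004b library, MALAT1 and NEAT1 were within counting error of equality, and TUG1, NORAD and OIP5-AS1 were 1.51-, 1.74- and 2.04-fold lower. Of the 6, 1 was at least 2-fold lower and 0 were at least 2-fold higher. The share at least 2-fold lower was 8.55% of all measured genes and 13.4% of non-coding ones, and the share at least 2-fold higher was 6.12% and 11.5%, so 1 of 6 says nothing particular about these genes. The median log2 ratio of the 6 was -0.39, against -0.12 over all genes and -0.24 over non-coding genes. Summed, they made up 0.093% of the named counts of the tRF-3004b library and 0.130% of those of the control library, a log2 ratio of -0.44 (95% interval -0.52 to -0.37).

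**Figure D1:**
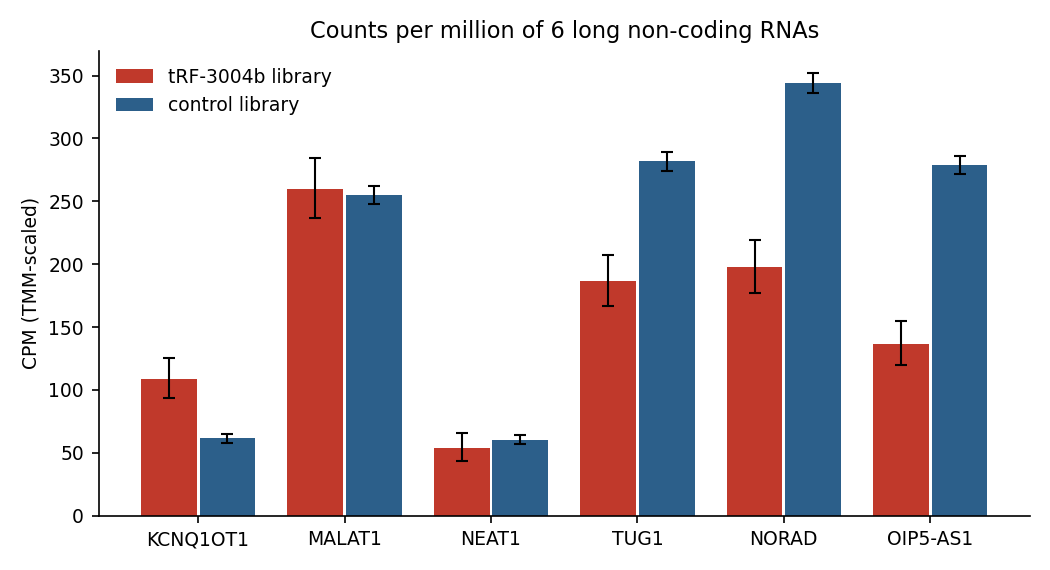
Level of each long non-coding RNA in the tRF-3004b library (left bar) and the control library (right bar), in TMM-scaled CPM, with exact Poisson 95% intervals that cover counting error only; 1 library per group. The intervals of both libraries overlap for MALAT1 and NEAT1 and are apart for the other 4, with KCNQ1OT1 higher in the tRF-3004b library and TUG1, NORAD and OIP5-AS1 lower.

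In order of the log2 ratio, KCNQ1OT1 stood at 0.82, MALAT1 at 0.03, NEAT1 at -0.17, TUG1 at -0.60, NORAD at -0.80 and OIP5-AS1 at -1.03. The interval of KCNQ1OT1 overlapped with that of no other member. For every other pair of neighbours in this order, MALAT1 with NEAT1, NEAT1 with TUG1, TUG1 with NORAD and NORAD with OIP5-AS1, the intervals overlapped, so the order within each of these pairs is uncertain. Levels per length, in TPM, gave another order. In the tRF-3004b library NORAD had 65.8 TPM, TUG1 56.5, MALAT1 55.1, OIP5-AS1 27.5, NEAT1 23.7 and KCNQ1OT1 2.07. In the control library NORAD had 145 TPM, TUG1 102, OIP5-AS1 73.2, MALAT1 67.2, NEAT1 30.9 and KCNQ1OT1 1.49. OIP5-AS1 thus stood above MALAT1 in the control library and below it in the tRF-3004b library.

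KCNQ1OT1 is an unspliced antisense RNA that is transcribed from the paternal chromosome within KCNQ1 and is known for silencing neighbouring imprinted genes in cis. It lies on the minus strand of chromosome 11, 2608328 to 2699994 (GRCh38), as 1 exon of 91667 bases. KCNQ1OT1 had 193 counts in the tRF-3004b library and 1224 in the control library, which is 109 CPM (95% interval 93.9 to 125) against 61.4 CPM (58.0 to 64.9). The log2 ratio was 0.82 (interval 0.60 to 1.04), and the intervals of the levels did not overlap. Its TPM values of 2.07 and 1.49 were low because the counts are spread over so long a transcript. By CPM it was the 27th most abundant non-coding gene in the tRF-3004b library and the 45th in the control library. By TPM it was number 1088 among non-coding genes in the tRF-3004b library and number 1694 in the control library.

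An RNA of this length holds many short motifs. Its transcript held 13 matches to the tRF-3004b seed, AGATTTG on the sense strand, or 0.142 per kb, against 0.108 per kb over the longest transcripts of the 8379 measured genes that GENCODE 29 names. It also held 6 stretches with at least 18 A in a window of 20 bases, and 13.7% of these genes held any. NEAT1, TUG1 and OIP5-AS1 held 1 each, in 22743, 7469 and 8829 bases, and MALAT1 and NORAD 0. Per length, KCNQ1OT1 with its 91667 bases thus held fewer than TUG1 or OIP5-AS1 and more than NEAT1. The richest stretch of KCNQ1OT1 is shown because poly-A selection acts on runs of A. Whether these stretches bear on the level was not tested. The capitals mark that window, on the minus strand at chr11:2648980-2649009.
KCNQ1OT1 A-rich window: gagtcAAAAAAAAAAAAAAAAAAAAaaaga
Of the distinct 31-base words of KCNQ1OT1, 4.22% also occurred in transcripts of other genes on the same strand, and NMNAT3, which shared the most, had 1.36% of them. KCNQ1, the potassium channel gene that it overlaps in antisense, had 0 counts in the tRF-3004b library and 7 in the control library. TRPM5 and KCNQ1-AS1, the genes nearest to it on either side, had 0 counts in both. Whether the authors counted by strand is not given in the sources used here.

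MALAT1 is a nuclear speckle RNA associated with pre-mRNA splicing factors. It lies on the plus strand of chromosome 11, 65497688 to 65506516 (GRCh38), 52148 bases from the end of NEAT1. MALAT1 had 461 counts in the tRF-3004b library and 5083 in the control library, which is 259.5 CPM (interval 236 to 284) against 255 CPM (248 to 262). The log2 ratio of 0.03 (interval -0.11 to 0.16) included 0, and with gene TPM it was -0.28, where the median of all genes was -0.43. MALAT1 had the highest count of the 6 in the tRF-3004b library, whereas NORAD, TUG1 and OIP5-AS1 had higher counts in the control library. Per length, MALAT1 had 55.1 TPM in the tRF-3004b library and 67.2 TPM in the control library. Its transcript of 8708 bases in GENCODE 29 held no seed match of either transfected RNA and no stretch with at least 18 A in 20 bases. The richest window, with 17 A, is shown in capitals because it is the A-rich tract at the mature 3′ end, which takes part in the triple helix (plus strand, chr11:65506092-65506121).
MALAT1 A-rich tract: tagctTAAAAAAAAAAAAAGCAAAAgatgc

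NEAT1 is the scaffold of paraspeckles, nuclear bodies that hold RNA-binding proteins and edited or retained RNAs. It lies on the plus strand of chromosome 11, 65422774 to 65445540 (GRCh38), as a short polyadenylated isoform and a long isoform that start at the same place. NEAT1 had 95 counts in the tRF-3004b library and 1204 in the control library, which is 53.5 CPM (interval 43.3 to 65.4) against 60.4 CPM (57.0 to 63.9). The log2 ratio of -0.17 (interval -0.49 to 0.13) included 0. Per length, the gene had 23.7 TPM in the tRF-3004b library and 30.9 TPM in the control library.

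The long NEAT1 isoform, the one that builds paraspeckles, took a smaller share of the gene in the tRF-3004b library. The 3756-base isoform had 86 counts in the tRF-3004b library and 969 in the control library, a log2 ratio of -0.005 (interval -0.34 to 0.31). The 22743-base isoform had 9 counts in the tRF-3004b library and 234 in the control library, a log2 ratio of -1.20 (interval -2.36 to -0.26). The long isoform thus held 9.47% of the NEAT1 counts in the tRF-3004b library (exact Clopper-Pearson 95% interval 4.42% to 17.2%) and 19.4% in the control library (17.2% to 21.8%). These share intervals just fail to meet, and the log2 intervals of the isoforms overlap. Reads from the shared 5′ part were divided between the isoforms by kallisto, and only 9 counts stand behind the long isoform in the tRF-3004b library. Over all genes, the median log2 ratio was -0.185 in the length bin of 3650 to 4266 bases and -0.456 in the bin from 7912 bases up. The part of length in the lower share of the long isoform was not tested. The last 30 bases of the long isoform are shown because they end in the A-rich tract of its triple helix, and the 2 seed matches of NEAT1 because both lie beyond the first 3756 bases, at bases 3826 and 22198 of the long transcript. Capitals mark the whole 3′ end and the seed matches (plus strand).
NEAT1 3′ end, chr11:65445511-65445540: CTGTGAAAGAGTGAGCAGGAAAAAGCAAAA
NEAT1 first seed match, chr11:65426614-65426638: tttaggtctAGATTTGctagctcca
NEAT1 other seed match, chr11:65444986-65445010: cagatgaaaAGATTTGtgcctttaa
FRMD8, the gene next to NEAT1 on its 5′ side, had 7 counts in the tRF-3004b library and 123 in the control library, a log2 ratio of -0.64 (interval -1.99 to 0.44). MIR612, which lies inside NEAT1, had 0 counts in both libraries.

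TUG1 is a spliced RNA that was first described as induced by taurine in the mouse retina and that has been linked to Polycomb proteins. It lies on the plus strand of chromosome 22, 30969245 to 30979395 (GRCh38), 947 bases from MORC2, which runs in the other direction. GENCODE 29 lists it as non-coding, while the RefSeq gene table used for names lists the gene as protein coding. TUG1 had 331 counts in the tRF-3004b library and 5617 in the control library, which is 186 CPM (interval 167 to 208) against 282 CPM (274 to 289). The log2 ratio was -0.60 (interval -0.76 to -0.44), and the levels did not overlap. Per length, TUG1 had 56.5 TPM in the tRF-3004b library and 102 TPM in the control library. MORC2 had 80 counts in the tRF-3004b library and 1089 in the control library, a log2 ratio of -0.28 (interval -0.62 to 0.05). On the other side SMTN had 13 counts in the tRF-3004b library and 149 in the control library, at -0.03 (interval -0.97 to 0.79). TUG1 held 1 seed match, and 807 of 1470 genes with a GENCODE transcript of like length held at least as many. It is shown in capitals (plus strand, chr22:30970895-30970919).
TUG1 seed match: aaaatcagtAGATTTGgaagtgatt

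NORAD is a cytoplasmic RNA that is induced by DNA damage and binds PUMILIO proteins such as PUM2, which repress messenger RNAs that carry their motif. It lies on the minus strand of chromosome 20, 36045622 to 36050960 (GRCh38), as 1 exon. NORAD had 351 counts in the tRF-3004b library and 6858 in the control library, which is 198 CPM (interval 177 to 219) against 344 CPM (336 to 352). The log2 ratio was -0.80 (interval -0.96 to -0.64), and the levels did not overlap. Per length it was the most abundant of the 6 in both libraries, with 65.8 TPM in the tRF-3004b library and 145 TPM in the control library. Among non-coding genes it stood 15th by CPM in the tRF-3004b library and 8th in the control library.

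The repeated PUMILIO motif sets the NORAD sequence apart from transcripts of like length. The motif TGTANATA, with any base at N and searched on the sense strand only, occurred 15 times in NORAD, or 2.81 per kb. Of 2332 other genes with a transcript within 1.25-fold of its length, 49.9% held the motif at all and 1 held it at least 15 times. Over the 8379 measured genes with a GENCODE transcript, 41.8% held it, at 0.152 per kb. The motifs run from base 761 to base 4599 of the transcript, and those shown, with the motif in capitals, are examples of single motifs and of pairs that start 9 bases apart (minus strand).
NORAD first motif, chr20:36050187-36050206: ggcctgTGTATATAatatga
NORAD second motif, chr20:36049808-36049827: ctactgTGTATATAgttgac
NORAD first of a pair, chr20:36049506-36049525: tatctgTGTATATAgtgtac
NORAD next of that pair, chr20:36049497-36049516: atatagTGTACATAaaggac
NORAD last motif, chr20:36046349-36046368: cctattTGTAAATAcctttg
Of the other members, KCNQ1OT1 held 9 such motifs, NEAT1 6, TUG1 2, OIP5-AS1 1 and MALAT1 0. NORAD held no seed match. It has partial copies elsewhere, and 51.3% of its 31-base words also occurred in transcripts of other genes. Of genes in the tables, OVCH1-AS1 shared 40.4% of the words and had 0 counts in both libraries, and HCG11 shared 12.4% and had 50 counts in the tRF-3004b library and 1268 in the control library. Summed over NORAD and both genes, the log2 ratio was -0.85 (interval -1.0 to -0.71). The neighbour CNBD2 had 1 count in the tRF-3004b library and 9 in the control library, too few for a ratio. EPB41L1, on the other side, had 27 counts in the tRF-3004b library and 472 in the control library, a log2 ratio of -0.64 (interval -1.26 to -0.08).

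OIP5-AS1, also called cyrano, is a conserved spliced RNA known in mice for directing the decay of the microRNA miR-7 and in human cells for binding the RNA-stabilising protein HuR. It lies on the plus strand of chromosome 15, 41283990 to 41309737 (GRCh38). OIP5-AS1 had 243 counts in the tRF-3004b library and 5561 in the control library, which is 137 CPM (interval 120.1 to 155) against 279 CPM (272 to 286). It was 2.04-fold lower (interval 1.79 to 2.33), a log2 ratio of -1.03 (interval -1.22 to -0.84), so the 2-fold line lies inside the interval. Per length it had 27.5 TPM in the tRF-3004b library and 73.2 TPM in the control library, the largest ratio between the libraries of the 6. OIP5, the kinetochore gene whose locus it overlaps at the 3′ end in antisense, had 80 counts in the tRF-3004b library and 628 in the control library, a log2 ratio of 0.51 (interval 0.16 to 0.85), the opposite sign. A relation between the ratios of OIP5 and OIP5-AS1 was not tested, and the strand setting of the counts is not given. Beside OIP5-AS1, CHP1 had 101 counts in the tRF-3004b library and 1369 in the control library, at -0.27 (interval -0.58 to 0.02). NUSAP1 had 388 counts in the tRF-3004b library and 4869 in the control library, at -0.16 (interval -0.31 to -0.01). OIP5-AS1 held no seed match, while 59.3% of 1026 genes with a transcript of like length did. Its most A-rich window is shown in capitals, for comparison with that of KCNQ1OT1 (plus strand, chr15:41301966-41301995).
OIP5-AS1 A-rich window: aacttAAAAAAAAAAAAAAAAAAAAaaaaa

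**Figure D2:**
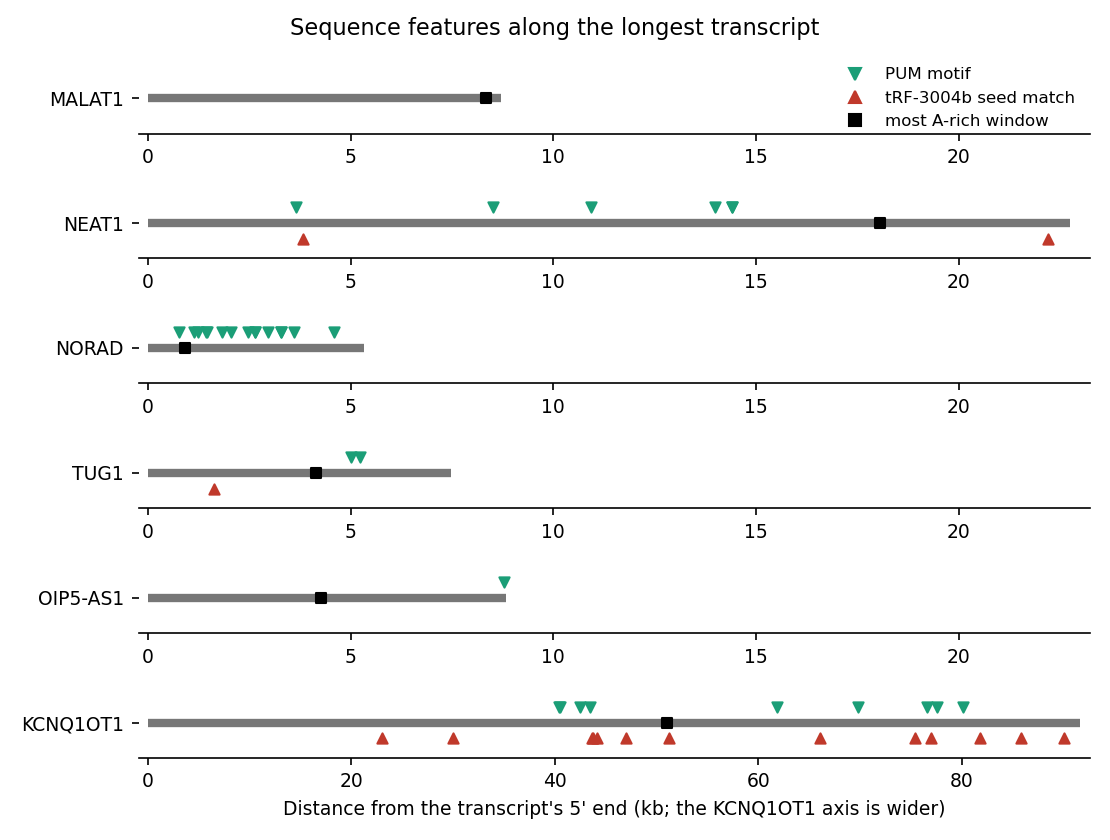
Position of motifs along the longest GENCODE 29 transcript of each gene, in kb from the 5′ end (KCNQ1OT1 on a wider axis): PUMILIO motifs (green, above the line), matches to the tRF-3004b seed (red, below it) and the most A-rich window of 20 bases (black square). NORAD carries 15 PUMILIO motifs and no seed match, KCNQ1OT1 carries 13 seed matches, and the MALAT1 A-rich window lies near the 3′ end, at base 8336 of 8708.

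Beside the ratios, the seed matches were 13 in KCNQ1OT1, which was higher in the tRF-3004b library, 2 in NEAT1 and 0 in MALAT1, both near equality, and 1 in TUG1 and 0 in NORAD and OIP5-AS1, all 3 lower. Per length, KCNQ1OT1 held 0.142 and TUG1 0.134 matches per kb, so the higher number in KCNQ1OT1 goes with its length. A relation between matches and ratios was not tested. A match is a string of letters only, and 35.5% of the 8379 measured genes with a GENCODE transcript held at least 1.

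Transcript length moved with the ratio over all genes, and all 6 are longer than most messenger RNAs; the part of length in each ratio was not tested. Lengths weighted by counts were 5378 bases for NORAD, 6322 for TUG1, 6586 for NEAT1, 8462 for MALAT1, 8793 for OIP5-AS1 and 91671 for KCNQ1OT1. MALAT1, at 0.03, stood above the median of -0.47 of the 1063 genes within 1.25-fold of its length, of which 16.1% were at least 2-fold lower and 1.51% at least 2-fold higher; 186 of them had a higher ratio. NEAT1, at -0.17, stood inside the middle 50% of its 1649 like-length genes, from -0.72 to -0.04, and 14.6% of them were at least 2-fold lower and 1.88% at least 2-fold higher. Its weighted 6586 bases lie between its isoforms of 3756 and 22743 bases, so these genes are like neither isoform in length. TUG1, at -0.60, also stood inside the middle 50% of its 1722 genes, from -0.72 to -0.03, with 563 genes lower, 14.2% at least 2-fold lower and 1.86% at least 2-fold higher. NORAD, at -0.80, stood below the lower quartile of -0.68 of its 2054 genes, with 388 of them lower still, 12.1% at least 2-fold lower and 2.0% at least 2-fold higher. OIP5-AS1, at -1.03, stood below the lower quartile of -0.81 of its 959 genes, of which 148 were lower, 16.3% were at least 2-fold lower and 1.67% at least 2-fold higher. For KCNQ1OT1 only 1 other gene lay within 1.25-fold of its length, at a log2 ratio of -0.50.

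With the length trend removed, the log2 ratios were 1.04 for KCNQ1OT1 (interval 0.82 to 1.26), 0.48 for MALAT1 (0.34 to 0.62), 0.22 for NEAT1 (-0.10 to 0.52), -0.21 for TUG1 (-0.38 to -0.05), -0.46 for NORAD (-0.62 to -0.31) and -0.57 for OIP5-AS1 (-0.76 to -0.38). The trend at 91671 bases rests on very few genes. The NEAT1 value takes the trend at 6586 bases, which is the length of neither isoform. On this scale KCNQ1OT1 was the 1 member at least 2-fold higher, against 4.71% of all genes, and 0 of 6 were at least 2-fold lower, against 5.56%. The interval of MALAT1 lay above 0 here and included 0 without the correction. With gene TPM in place of scaled counts, 2 of 6 members, NORAD and OIP5-AS1, were at least 2-fold lower, against 16.2% of all measured genes, and 0 were at least 2-fold higher, against 2.24%. TUG1, NORAD and OIP5-AS1 stayed below 0 and KCNQ1OT1 above 0 on all 3 scales.

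**Figure D3:**
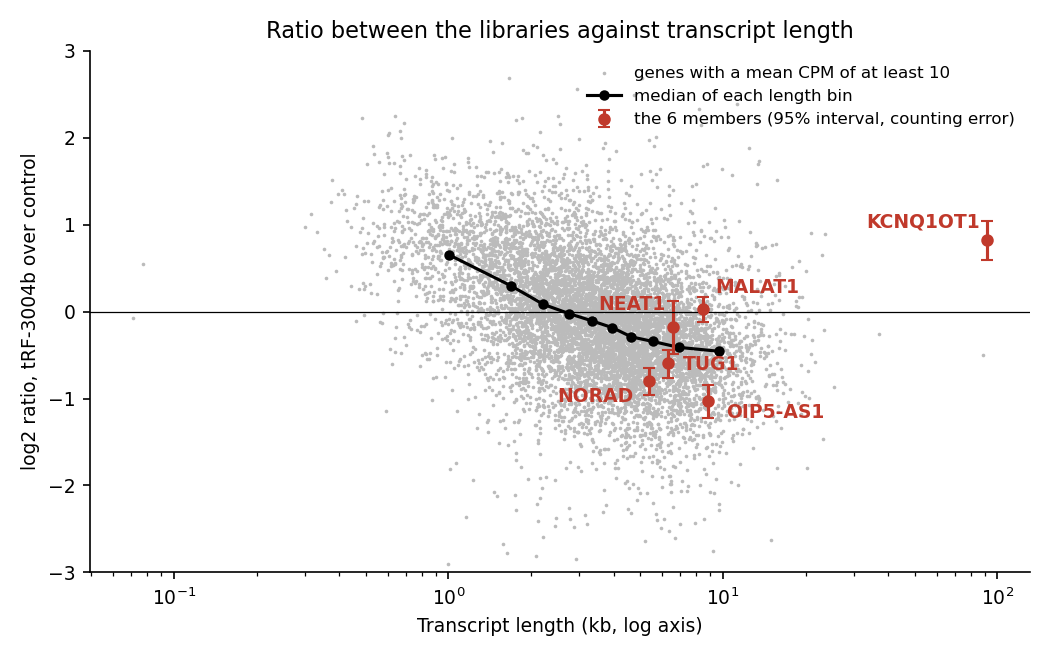
Log2 ratio of tRF-3004b over control against transcript length in kb (log axis) for all measured genes (grey), with the median of each of 10 length bins (black) and the 6 long non-coding RNAs (red, 95% intervals for counting error); 16 genes beyond a log2 ratio of 3 in either direction lie outside the axis. The bin medians run from 0.65 to -0.46, MALAT1 and KCNQ1OT1 stand above that line and NORAD and OIP5-AS1 below it.

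The division of counts among annotated transcripts differed between the libraries for all 4 genes that have more than 1. For MALAT1, the 8302-base transcript had 323 counts in the tRF-3004b library and 157 in the control library, or 70.1% (interval 65.7% to 74.2%) against 3.09% (2.63% to 3.60%) of the gene. The 8545-base transcript had 138 counts in the tRF-3004b library and 4704 in the control library, or 29.9% (25.8% to 34.3%) against 92.5% (91.8% to 93.3%). The 8779-base transcript had 0 counts in the tRF-3004b library and 222 in the control library. The summed MALAT1 counts had a log2 ratio of 0.03. The estimates for the 8302-base and 8545-base transcripts had ratios of 4.51 (interval 4.25 to 4.81) and -1.60 (-1.86 to -1.36). These intervals leave out the error of dividing reads shared between the transcripts, so a change of either transcript cannot be read from them.

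For TUG1, the 5274-base transcript held 64.4% of the counts in the tRF-3004b library (213 counts) and 25.4% in the control library (1425 counts), a log2 ratio of 0.75 (interval 0.53 to 0.95). The 7542-base transcript held 34.4% in the tRF-3004b library (114 counts) and 27.1% in the control library (1520 counts), at -0.25 (interval -0.54 to 0.03). The 5260-base transcript, close in length to the 5274-base one, had 1 count in the tRF-3004b library and 1194 in the control library. The 7528-base transcript, close in length to the 7542-base one, had 3 and 1345. The ratios of 0.75 and -0.25 are therefore those of single estimates and do not stand for either pair. The 7598-base transcript had 0 counts in the tRF-3004b library and 132 in the control library. For OIP5-AS1, all 243 counts of the tRF-3004b library fell on the 8844-base transcript, which had 4696 in the control library, a log2 ratio of -0.78 (interval -0.98 to -0.60). The 8606-, 9027- and 1733-base transcripts had 0 counts in the tRF-3004b library and 762, 68 and 35 in the control library. These values are the authors' estimates for transcripts that overlap in sequence. Their intervals take each estimate as a plain count and leave out the error of dividing shared reads, which cannot be had from these files.

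**Figure D4:**
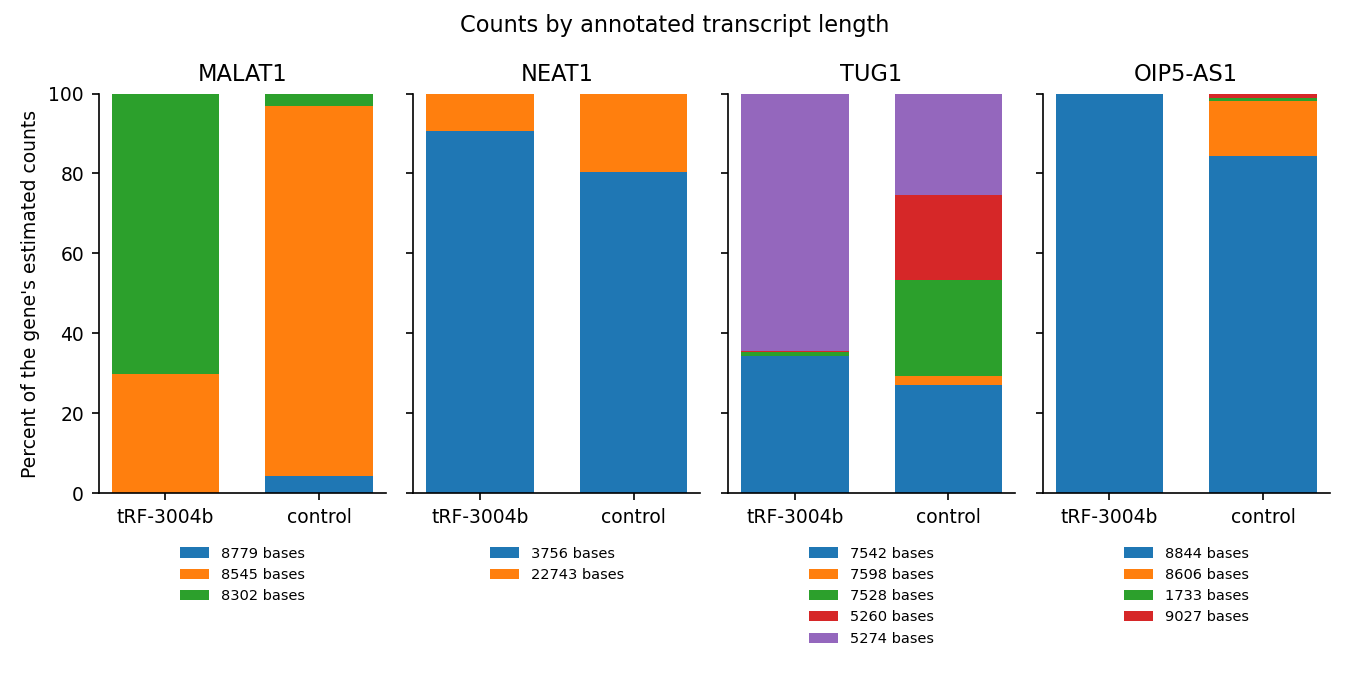
Percent of each gene's estimated counts on each annotated transcript, named by its length in bases, in the tRF-3004b library (left bar) and the control library (right bar); 1 library per group. The 8302-base MALAT1 transcript holds 70.1% in the tRF-3004b library and 3.09% in the control library, and OIP5-AS1 counts fall on 1 transcript in the tRF-3004b library.

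Genes whose products bind, process or neighbour these RNAs are described by lists drawn up by function. Of the 85 measured entries of 8 lists, 0 were at least 2-fold lower and 3 at least 2-fold higher, against 8.55% and 6.12% of all genes. The 17 paraspeckle proteins had a median log2 ratio of -0.15, close to the -0.12 of all genes, with 0 past 2-fold. PSPC1 and SMARCA4 were the lowest, at -0.56 (interval -0.83 to -0.30) and -0.49 (-0.74 to -0.26). SFPQ, which is needed for NEAT1 to persist, stood at 0.61 (interval 0.54 to 0.69). The 16 nuclear speckle proteins, among which MALAT1 resides, had a median of 0.04 and 0 past 2-fold. They ran from CLK1 at -0.37 and DDX39B at -0.18 to SRSF1 at 0.40 and BCLAF1 at 0.54. Their median was -0.006 with total counts and -0.19 with gene TPM, a scale on which the median of all genes was -0.43. Of 9 measured subunits of RNase P and RNase Z, which cut the 3′ ends of MALAT1 and long NEAT1, 2 were at least 2-fold higher and 0 lower, with a median of 0.71. POP4 stood at 1.49 (interval 1.20 to 1.79) and POP7 at 1.13 (0.53 to 1.70), RPP14 at -0.03 and ELAC2, the RNase Z that trims the tRNA-like RNA released from MALAT1, at 0.29 (0.02 to 0.54). The median transcript length of these genes was 2536 bases, and with the length trend removed their median was 0.46 and 1 of the 9, POP4 at 1.47, was at least 2-fold higher, while POP7 stood at 0.43.

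Among NORAD partners, PUM2 had a log2 ratio of -0.61 (interval -0.79 to -0.44), beside the -0.80 of NORAD (-0.96 to -0.64). PRPF19 and TOP1, which meet NORAD in a nuclear complex, were at 0.53 each, and the median of the 7 was -0.15 with 0 past 2-fold. The 10 measured genes of PRC2, a Polycomb complex that methylates histone H3 and binds many RNAs, had a median of -0.23 and 0 past 2-fold, from JARID2 at -0.67 and EZH1 at -0.65 to RBBP7 at 0.12 and EED at 0.26. Of the KCNQ1 imprinted domain 2 genes were measured, NAP1L4 at 0.40 (interval 0.24 to 0.56) and CD81 at 0.16 (-0.21 to 0.51). Their median was 0.28, or -0.089 with gene TPM, where that of all genes was -0.43. CDKN1C, a cell cycle inhibitor that KCNQ1OT1 is known to silence in cis, had 0 counts in the tRF-3004b library and 52 in the control library. Its level in the control library was 2.61 CPM. PHLDA2, another imprinted gene of the domain, had 5 counts in the tRF-3004b library and 10 in the control library. Scaled for depth, PHLDA2 was higher, with 2.8 CPM in the tRF-3004b library and 0.50 CPM in the control library. Its log2 ratio was 2.31 (interval 0.59 to 4.17). Both genes were below the minimum of 10 CPM.

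The nuclear exosome, which degrades nuclear non-coding RNA, had a median of 0.21 over 14 measured genes and 0 past 2-fold, from ZCCHC8 at -0.87 and ZFC3H1 at -0.58 to EXOSC2 at 0.67 and EXOSC3 at 0.92. With gene TPM this median was -0.13, where that of all genes was -0.43. Of 10 other measured long non-coding RNAs, 1 was at least 2-fold higher, DLEU2 at 1.40 (interval 1.16 to 1.63), and 0 were at least 2-fold lower. DANCR followed at 0.97, and EBLN3P and FGD5-AS1 were the lowest at -0.92 and -0.68. The median of the 10 was -0.37, beside -0.39 for the 6 members. Their median length of 1800 bases is below that of every member. With the length trend removed the medians were -0.086 for these 10 and 0.003 for the 6 members.

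**Figure D5:**
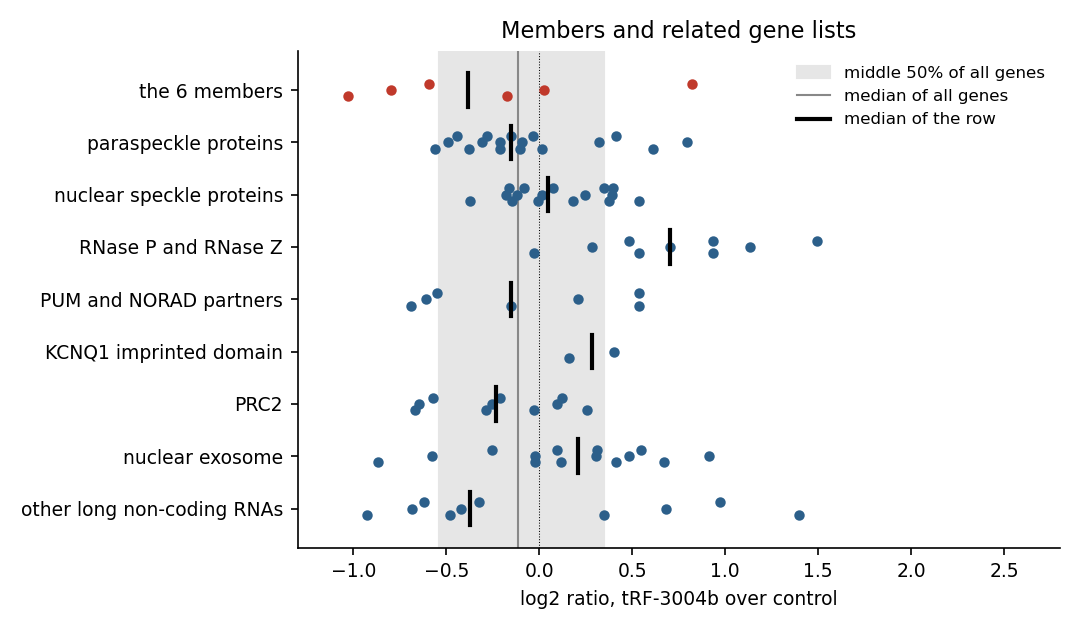
Log2 ratio of tRF-3004b over control for the 6 long non-coding RNAs (red, top row) and for measured genes of 8 lists (blue), with the median of each row (black bar), the median of all genes (grey line) and their middle 50% (grey band); each point is 1 gene in 1 library per group. The RNase P and RNase Z row has a median of 0.71, above the band that ends at 0.35, and the members spread from -1.03 to 0.82.

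The genes most like each member, by distance in log2 CPM over the 2 libraries, were messenger RNAs of varied length. They were MRPS23 and TTC1 for KCNQ1OT1, PFN2 and DICER1 for MALAT1, FOXN2 and KATNA1 for NEAT1, TAOK1 and MTR for TUG1, PTBP3 and CAST for NORAD, and AGTPBP1 and CAPN2 for OIP5-AS1. DICER1, which makes microRNAs, had 262 CPM in each library, at a distance of 0.040 from MALAT1. With 2 libraries, such likeness says only that the levels are alike in both.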

How the data were processed

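The submitters' processing notes name kallisto 0.46.1 and GRCh38. The deposited tables list 70866 RefSeq transcripts. Per the file headers, their values are estimated counts, TPM (a level per effective length), lengths and effective lengths. No source used here gives strand settings or an annotation release. Transcripts were named with a RefSeq table (70245) and GENCODE 29 (293); 328 stayed unnamed and were left out, with 0.0713% of tRF-3004b and 0.0723% of control counts. For each gene, the deposited estimated counts were added up and rounded, and TPM was added up.

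CPM used TMM factors of edgeR 4.0.16 (0.983 for tRF-3004b, 1.02 for control) in R 4.3.3. The log2 ratio is tRF-3004b over control with 0.5 counts added at the geometric mean library size, with an exact conditional 95% interval (Clopper-Pearson) without them. With 1 library per group no test was run. No source used here names molecular identifiers, so intervals and floors describe counting error alone. Length trends were fitted by lowess (statsmodels 0.14.6, fraction 0.3) and like length means within 1.25-fold. Sequences and motif positions come from GENCODE 29 transcripts, the longest per gene.

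Members and lists were chosen with earlier results of these data known. Named genes are the 6 members, the 2 highest and 2 lowest measured genes of each list, the overlapping or nearest genes, and the 2 nearest in CPM; some of these are not reported here. LHX1, PAX2, VIM, EYA1, NEFM, INA, KRT5, CDKN1C, PHLDA2, ELAC2, OVCH1-AS1, HCG11 and NMNAT3 were added after their values were seen.

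The alternatives included scaling by total counts or by size factors from DESeq2 1.42.0, gene TPM with 1 added, a pseudocount of 5, length trend removal, the most abundant transcript, other CPM minimums and the longest transcript as length. The sum over genes sharing at least 10% of 31-base words was chosen after seeing the data.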

Additional observations from a re-analysis of the deposited data

How the results depend on the processing

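Of 119 alternative values, 97 stayed within a set range around the reported one and 9 had the other sign. That range was the interval of a member, the range of genes in a list or length bin, or a similar count. It is wide for lists. With gene TPM the PRC2 median went from -0.23 to -0.57 and the nuclear exosome median from 0.21 to -0.13, and both stayed within it. With gene TPM and 1 added, the median of all genes was -0.43 in place of -0.12, and the log2 ratios were -0.28 for MALAT1, -1.13 for NORAD, -0.84 for TUG1, 0.30 for KCNQ1OT1 and -1.38 for OIP5-AS1, with 2 members at least 2-fold lower in place of 1. Relative to the median of all genes, MALAT1 stood at 0.14 with TPM and 0.14 with scaled counts. KCNQ1OT1 stood at 0.73 with TPM and 0.94 with scaled counts. At its TPM of 2.07 and 1.49 the added 1 itself lowers the ratio, which was 1.39-fold without it. With total counts MALAT1 was at -0.025 and the nuclear speckle median at -0.006. List medians with TPM were -0.45 for paraspeckle and -0.19 for nuclear speckle proteins and -0.13 for the nuclear exosome. The KCNQ1 imprinted domain changed sign to -0.089. All genes shifted too. Relative to their median, the nuclear exosome stood at 0.30 with TPM and 0.325 with scaled counts. In the same order, the KCNQ1 domain stood at 0.34 and 0.40 and nuclear speckle proteins at 0.23 and 0.16. Paraspeckle proteins stood at -0.027 and -0.038, and PRC2 at -0.15 and -0.12. With the length trend removed, the ratios were 0.48 for MALAT1, 0.22 for NEAT1, -0.46 for NORAD, -0.21 for TUG1 and -0.57 for OIP5-AS1, 0 members were at least 2-fold lower and 1 was at least 2-fold higher, and the KCNQ1 domain median was 0.068. With the most abundant transcript alone, MALAT1 was at -1.60 and OIP5-AS1 at -0.78, and TUG1 changed sign to 0.75. For these 3 genes that setting drops the counts of the other transcripts, for TUG1 among them the 1194 control counts of the 5260-base one. With a mean CPM of at least 1, 1947 genes were at least 2-fold lower and 1680 higher, in place of 745 and 533, as more genes were counted. Total counts, DESeq2 size factors and a pseudocount of 5 moved none of the member values beyond their intervals. Each gave 16 of the 97 values within range. Scaling by total counts or DESeq2 size factors shifts all genes nearly alike, so it could move little.

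No paired analysis was possible because each group has 1 library, and leaving out a library would end the comparison. The depth of the tRF-3004b library limits every ratio, and several transcripts had under 10 counts there.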

Other observations

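Among other genes that RefSeq lists as lncRNA, with a length of at least 5000 bases and an average of 10 or more CPM, 6 of 20 were at least 2-fold lower in the tRF-3004b library and 0 at least 2-fold higher. The shares were 13.4% and 11.5% of non-coding genes and 8.55% and 6.12% of all genes. In the length bins from 5045 bases up, 13.2% to 15.7% of genes were at least 2-fold lower and 1.49% to 2.18% at least 2-fold higher. The 20 had a median log2 ratio of -0.56, and -0.15 with the length trend removed. On that scale 0 of the 20 were at least 2-fold lower and 3 at least 2-fold higher. The shares there were 5.56% and 4.71% of all genes, and 39 and 31 of the 262 non-coding genes. This set was chosen after values were seen and holds readthrough genes such as TMX2-CTNND1. LINC00674 had 96 counts in the tRF-3004b library and 2424 in the control library, a log2 ratio of -1.17 (interval -1.48 to -0.87). NIPBL-DT, which starts beside the cohesin loader gene NIPBL, had 55 and 1360 counts, at -1.14 (interval -1.55 to -0.75), and MAGI2-AS3 94 and 1996 counts, at -0.92 (interval -1.23 to -0.62). On the other side, LINC02693 had 123 counts in the tRF-3004b library and 898 in the control library, at 0.62 (interval 0.34 to 0.89), and LINC01128 had 39 and 279 counts, at 0.65 (interval 0.13 to 1.14). Like the 6 members, these long RNAs lay on both sides of 0.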
